A study of Rattus norvegicus with 18 samples.

Results

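The renal handling of phosphate and vitamin D was examined through 10 genes: the sodium-phosphate cotransporters Slc34a1, Slc34a3, Slc20a1 and Slc20a2, the parathyroid hormone receptor Pth1r, the FGF23 co-receptor Klotho (Kl) and its receptor partner Fgfr1, the vitamin D receptor Vdr, and the enzymes Cyp27b1 and Cyp24a1, which make and break down active vitamin D. They were chosen by gene symbol, were the only rows of the table with those symbols, and are 10 of 32116 genes. All 10 passed the filter for testing, which kept 13851 genes with at least 1 FPKM in at least 6 libraries. FPKM is the number of fragments per kilobase of gene, scaled by a library size, so levels of different genes can be compared per length. The deposited values were scaled by median ratios between libraries and not by plain read totals. RNA was sequenced from kidneys of rats, with 18 libraries in 3 groups of 6. The SZ group was given both adenine and SZ-A, at daily doses of 100 and 300 mg per kg, the CKD group adenine alone at a daily dose of 100 mg per kg, and the NC group no treatment. Excess adenine is turned into a poorly soluble product that crystallises in the tubules, and it is widely used to produce chronic kidney disease in rodents. The sources used here do not give what SZ-A is, nor the strain, sex and age of the rats or the length of treatment. The libraries of a group are numbered, but whether each is another rat is not stated, and p-values therefore describe the spread among libraries, some of which may be technical.

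Filtered phosphate is taken back from the urine in the proximal tubule, mainly by NaPi-IIa (Slc34a1) and NaPi-IIc (Slc34a3) in the brush border. Parathyroid hormone, through its receptor, and the bone hormone FGF23, through FGF receptors bound to Klotho, both remove these carriers from the membrane. FGF23 also lowers Cyp27b1 and raises Cyp24a1, so that less active vitamin D reaches its receptor, while active vitamin D itself induces Cyp24a1 through Vdr. Loss of Klotho from the kidney is a known feature of chronic kidney disease.

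The sequences just upstream of the 5 genes that were lower in CKD kidneys than in NC kidneys are shown because these genes moved together in that comparison. Each is the 250 bases before the annotated start, 5′ to 3′ on the gene's strand, from RefSeq on the build GRCr8. Capitals mark 3 motifs, searched on both strands. The half-site of nuclear receptors was spelled AGGTCA. The GC box was spelled GGGCGG. The TATA box was spelled TATAAA.
Slc34a1 (chr17:9238984-9239233, minus strand): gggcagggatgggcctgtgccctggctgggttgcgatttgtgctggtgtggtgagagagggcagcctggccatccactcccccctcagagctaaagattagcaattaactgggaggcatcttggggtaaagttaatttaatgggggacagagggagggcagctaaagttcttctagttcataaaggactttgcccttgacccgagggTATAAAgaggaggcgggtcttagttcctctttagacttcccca
Slc34a3 (chr3:28447998-28448247, minus strand): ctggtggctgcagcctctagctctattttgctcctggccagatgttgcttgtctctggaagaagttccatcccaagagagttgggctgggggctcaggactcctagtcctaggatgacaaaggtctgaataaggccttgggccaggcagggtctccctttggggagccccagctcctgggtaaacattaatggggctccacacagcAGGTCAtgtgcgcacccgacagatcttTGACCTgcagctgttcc
Pth1r (chr8:119595572-119595821, minus strand): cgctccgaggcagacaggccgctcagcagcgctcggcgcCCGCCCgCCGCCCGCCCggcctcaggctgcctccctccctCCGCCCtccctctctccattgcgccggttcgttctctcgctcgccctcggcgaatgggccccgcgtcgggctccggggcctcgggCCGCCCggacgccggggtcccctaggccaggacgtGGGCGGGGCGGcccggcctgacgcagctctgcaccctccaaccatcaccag
Kl (chr12:5325753-5326002, plus strand): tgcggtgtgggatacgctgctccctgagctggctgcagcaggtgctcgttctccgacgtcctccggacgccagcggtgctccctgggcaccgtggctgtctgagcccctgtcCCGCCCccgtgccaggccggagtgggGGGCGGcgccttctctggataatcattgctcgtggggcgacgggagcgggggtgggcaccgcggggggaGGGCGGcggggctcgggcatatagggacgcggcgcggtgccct
Vdr (chr7:130916758-130917007, minus strand): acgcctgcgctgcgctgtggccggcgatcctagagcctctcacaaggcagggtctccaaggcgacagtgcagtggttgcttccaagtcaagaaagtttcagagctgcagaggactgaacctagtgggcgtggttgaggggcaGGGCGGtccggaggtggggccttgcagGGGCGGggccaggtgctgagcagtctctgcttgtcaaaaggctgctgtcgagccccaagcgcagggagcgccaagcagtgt

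The upstream sequences of the 5 genes differed in their letters. Slc34a1 held 1 TATAAA motif, which starts 43 bases before the gene's start. TATAAA occurred in 12.9% of 33469 RefSeq promoter windows of the same length. Slc34a3 held 2 AGGTCA motifs, at 44 and 17 bases, a motif found in 14.1% of windows. GGGCGG, found in 30.5% of windows, occurred 7 times upstream of Pth1r (some copies overlap), 3 times upstream of Kl and 2 times upstream of Vdr. The GC content was 77.6% for Pth1r, 73.2% for Kl, 63.6% for Vdr, 56.4% for Slc34a3 and 53.2% for Slc34a1, beside a median of 51.2% over all windows. These matches describe letters in the windows and were not tested as binding sites. Of the other members, Cyp27b1 had a window in the RefSeq table and held 1 TATAAA motif, and Cyp24a1, Fgfr1, Slc20a1 and Slc20a2 are named only.

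The libraries held 15354358 to 18532375 recovered reads, and kidney markers were present in all groups. Summed markers of proximal tubule, macrophages, fibroblasts and tubular injury differed in all 3 comparisons (exact permutation test, adjusted p under 0.05). The loop and distal tubule sum was lower than NC in both other groups but was not called between SZ and CKD (same test, adjusted p = 0.97). The sum of 5 collecting duct markers was 146 to 332 in SZ, 132 to 525 in CKD and 264 to 523 in NC. It was called in no comparison (same test, adjusted p = 0.084 to 0.97). Aqp2 weighed most in this sum, with means of 152 FPKM in SZ, 185 in CKD and 167 in NC. By limma 4 of the 5 collecting duct markers were called lower in CKD than in NC. In SZ 2 of the 5 were called higher than in CKD and 3 lower than in NC. The summed FPKM of 12 proximal tubule markers was 4603 to 8356 in SZ libraries, 1515 to 6562 in CKD libraries and 8917 to 10577 in NC libraries. The sum of 7 markers of the loop and distal tubule, where Klotho is also made, was 471 to 571 in SZ, 333 to 849 in CKD and 938 to 1926 in NC. The sum of 10 macrophage markers was 431 to 954 in SZ, 1045 to 2205 in CKD and 112 to 213 in NC, and that of 8 fibroblast markers was 210 to 432 in SZ, 361 to 934 in CKD and 73.2 to 185 in NC. The sum of 7 tubular injury markers was 3512 to 9660 in SZ, 7915 to 14032 in CKD and 80.3 to 260 in NC. A sum mainly follows its most abundant genes. Between SZ and CKD limma called 0 of 6 tested injury markers, and 2 were lower in SZ at an unadjusted p under 0.05. It called 2 of 7 tested fibroblast markers and 9 of 10 macrophage markers, all lower in SZ. Mitochondrial transcripts took 14.05% ± 2.83 of reads in SZ, 10.3% ± 3.61 in CKD and 19.4% ± 3.28 in NC (SD, n = 6 each). That share was lower in CKD than in NC and in SZ than in NC (exact permutation test, adjusted p = 0.00999 and 0.030 over 30 tests), SZ against CKD missed the threshold (adjusted p = 0.14), and its part in the results was not tested. Parathyroid and bone markers were near 0, and Pth and Gcm2 were at 0 in every library. In whole kidney, fewer cells of a type and less RNA per cell cannot be told apart. The slope of a library's values on gene length, relative to the average library, was -0.31 log2 units per doubling in CKD 5, -0.25 in SZ 3, -0.21 in CKD 2 and -0.10 in CKD 1, and 0.011 to 0.11 in the others.

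The comparison of CKD with NC kidneys asked what adenine changed. In CKD kidneys 5 of the 10 genes fell and 0 rose (limma on log2(FPKM + 1), adjusted p under 0.05 over all 13851 genes). Slc34a1, Slc34a3, Pth1r, Kl and Vdr fell, with log2 fold changes of -1.17 to -1.52, to between 0.349 and 0.445 of the NC level. Slc20a1, Slc20a2, Fgfr1, Cyp27b1 and Cyp24a1 were not called. Over all genes tested 26.0% were called lower, 24.4% higher and 50.3% in either direction, so calls were common in this comparison. The median log2 fold change was -0.66 over the 10 genes and -0.040 over all genes. The ranges of the groups did not overlap for Slc34a1, Pth1r and Kl, 3 of 10 genes, all lower in CKD, against 12.2% of all genes.

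**Figure D1:**
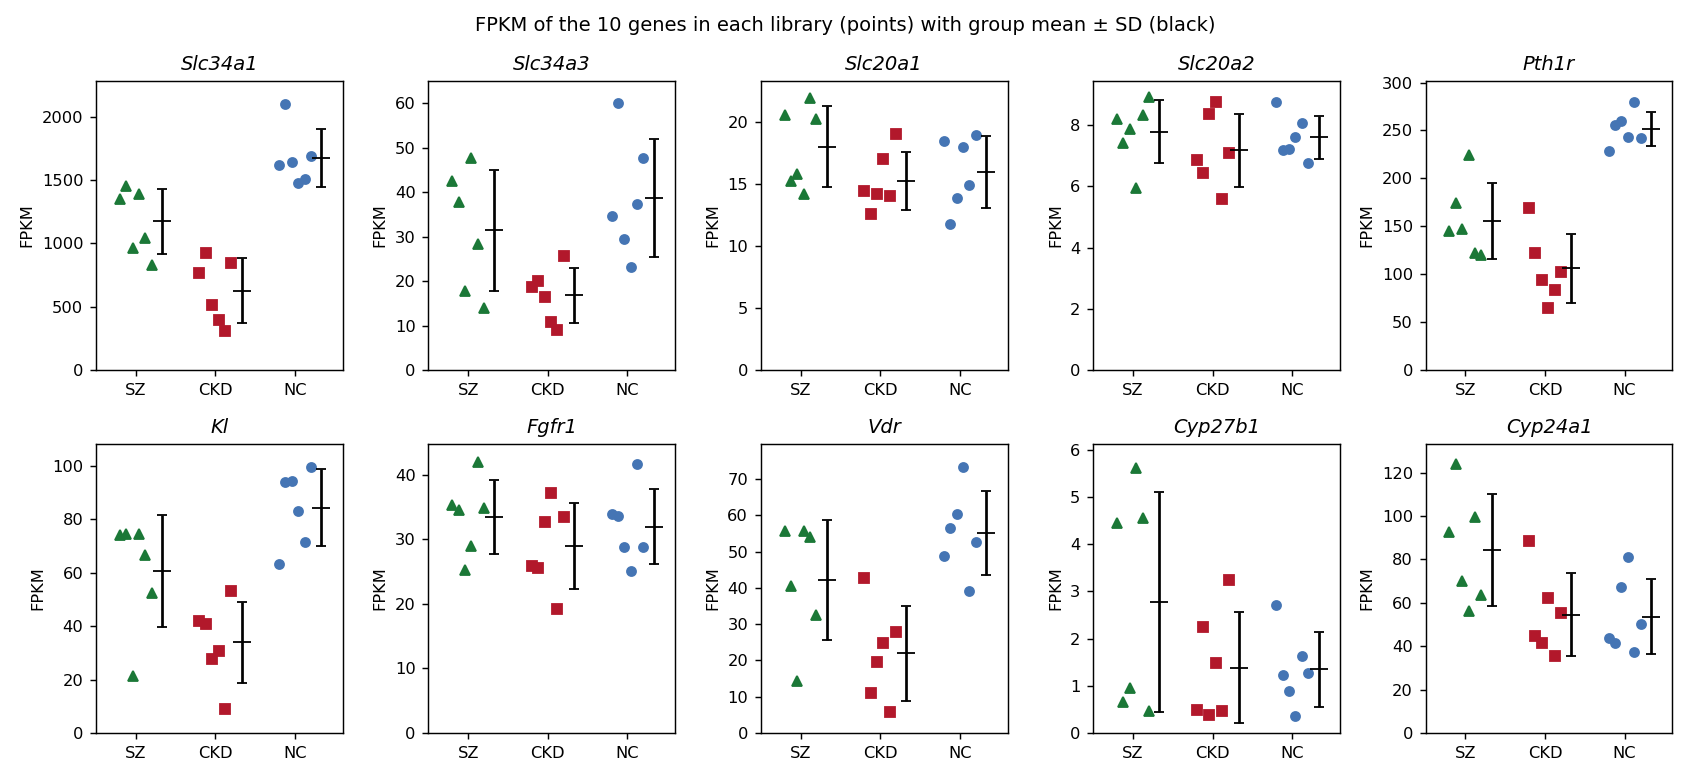
FPKM of the 10 genes in each library (points) of the SZ, CKD and NC groups, with the group mean and SD (black bars, n = 6) beside them. The CKD libraries of Slc34a1 lie between 308 and 925 FPKM, below all NC libraries (1474 to 2105), while those of Slc20a2 (5.58 to 8.77) overlap with NC (6.77 to 8.75).

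Slc34a1 (ENSRNOG00000015262; mRatBN7.2 chromosome 17, 9218876 to 9233852, minus strand) encodes NaPi-IIa, the main phosphate carrier of the proximal tubule brush border. Its lowest, median and highest libraries were 308, 642 and 925 FPKM in CKD kidneys and 1474, 1632 and 2105 FPKM in NC kidneys. Every CKD library lay below every NC library, with CKD 5 the lowest and NC 2 the highest. The mean was 627 ± 256 FPKM in CKD and 1674 ± 226 FPKM in NC (SD, n = 6 each), a log2 fold change of -1.52 with an SE of 0.25 (limma adjusted p = 6.0e-05). Slc34a3 (ENSRNOG00000010451; chromosome 3, 8044296 to 8049970, minus strand), which encodes the related NaPi-IIc, ran at 8.95, 17.6 and 25.7 FPKM in CKD and 23.1, 35.9 and 59.9 FPKM in NC. CKD 6 reached into the NC range, and the other CKD libraries lay below it. Its log2 fold change was -1.17 (SE 0.30, adjusted p = 0.0036).

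The carriers of the Slc20 family, which serve phosphate uptake in most cell types, were not called. Slc20a1 (PiT-1, ENSRNOG00000018567; chromosome 3, 116427098 to 116441051, plus strand) averaged 15.2 ± 2.34 FPKM in CKD and 16.0 ± 2.91 FPKM in NC, a log2 fold change of -0.06 with a 95% interval of -0.35 to 0.22 (adjusted p = 0.73, limma). Slc20a2 (PiT-2, ENSRNOG00000019490; chromosome 16, 69460462 to 69521711, minus strand) averaged 7.19 ± 1.19 FPKM in CKD and 7.60 ± 0.712 FPKM in NC, a log2 fold change of -0.08 with an interval of -0.31 to 0.14 (adjusted p = 0.55, limma). Both intervals exclude a fall of the size seen for Slc34a1. Their sign depended on the scaling: with every library set to a fixed FPKM sum, the log2 fold changes were 0.37 and 0.32, neither called, where the median over all genes stood at 0.34. Within a library, where scaling cancels, the log2 ratio of Slc34a1 to Slc20a1 (FPKM + 1) averaged 5.17 ± 0.68 in CKD and 6.63 ± 0.40 in NC, and the highest CKD library (6.09) lay below the lowest NC library (6.28). The log2 ratio of Slc34a1 to Slc34a3 averaged 5.11 ± 0.22 in CKD and 5.46 ± 0.34 in NC, with overlapping ranges. The ratios are descriptions and were not tested.

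**Figure D2:**
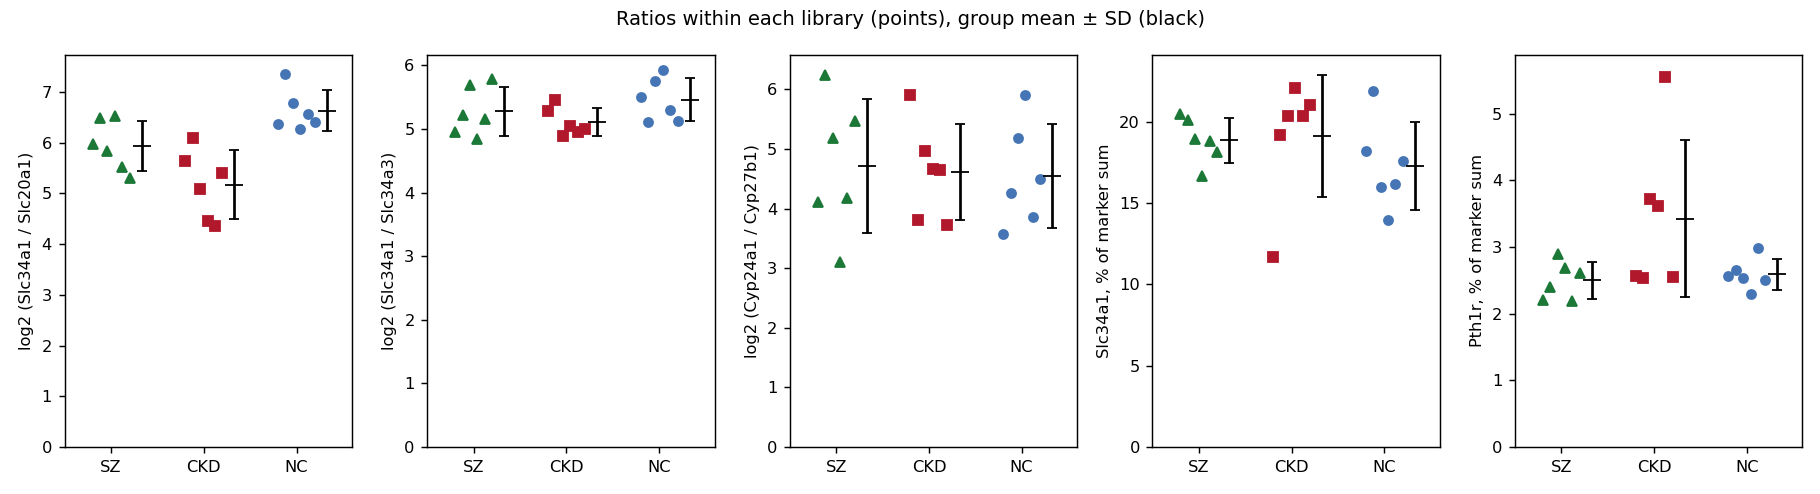
Ratios within each library (points) for the SZ, CKD and NC groups, with group mean and SD (black bars, n = 6): log2 ratios of FPKM + 1 for 3 gene pairs, and Slc34a1 and Pth1r as a percentage of the summed FPKM of 12 proximal tubule markers. The Slc34a1 to Slc20a1 ratio of all CKD libraries (at most 6.09) is under that of all NC libraries (at least 6.28), while Slc34a1 as a share of the marker sum averages 19.1% in CKD and 17.3% in NC with overlapping ranges.

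Set against the summed proximal tubule markers, none of which is a member, Slc34a1 was 19.1% ± 3.75 in CKD and 17.3% ± 2.68 in NC, and Slc34a3 was 0.531% ± 0.147 in CKD and 0.401% ± 0.145 in NC (SD, n = 6 each). The ranges overlapped for both carriers. Pck1 and Miox weighed most in the sum, with means of 3736 and 2483 FPKM in NC, where the sum averaged 9729. Every share of this sum therefore mainly follows these 2 genes. In the same comparison 10 of the 12 proximal tubule markers were called lower, with a median log2 fold change of -1.31, and the part of this in the fall of the carriers was not tested. Slc5a2 (-0.44) and Slc7a7 (0.33) were the markers not called.

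Pth1r (ENSRNOG00000020948; chromosome 8, 110697485 to 110719729, minus strand) encodes the receptor for parathyroid hormone and its related peptide. Its libraries ran at 64.5, 98.6 and 169 FPKM in CKD and 228, 249 and 279 FPKM in NC (lowest, median and highest). The NC libraries stood close together, and all CKD libraries were lower, with CKD 1 nearest to NC. The mean was 106 ± 36.2 FPKM in CKD and 251 ± 17.7 FPKM in NC, a log2 fold change of -1.30 with an SE of 0.19 (limma adjusted p = 2.0e-05), the smallest adjusted p of the 10 genes. As a share of the proximal tubule marker sum Pth1r was 3.42% ± 1.18 in CKD and 2.59% ± 0.228 in NC. The ranges overlapped, at 2.53% to 5.55% in CKD and 2.29% to 2.99% in NC, with CKD 5 the highest.

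Kl (ENSRNOG00000001092; chromosome 12, 490399 to 530080, plus strand) encodes Klotho, the membrane protein that lets FGF23 bind FGF receptors. Its libraries ran at 8.85, 35.9 and 53.0 FPKM in CKD and 63.2, 88.6 and 99.6 FPKM in NC. Every CKD library lay below every NC library, and CKD 5 was far below the rest of its group, where the next lowest library had 27.8 FPKM. The mean was 33.9 ± 15.2 FPKM in CKD and 84.3 ± 14.4 FPKM in NC, a log2 fold change of -1.44 with an SE of 0.35 (limma adjusted p = 0.0020). Kl was 6.75% ± 3.60 of the summed loop and distal markers in CKD and 6.33% ± 2.69 in NC, and 1.04% ± 0.438 of the proximal tubule sum in CKD and 0.865% ± 0.130 in NC. Umod weighed most in the loop and distal sum, with a mean of 829 FPKM in NC, where the sum averaged 1462. All 7 loop and distal markers were called lower in CKD, and their part in the fall of Kl was not tested. Fgfr1 (ENSRNOG00000016050; chromosome 16, 66494042 to 66547350, minus strand), an FGF receptor that pairs with Klotho, averaged 29.0 ± 6.63 FPKM in CKD and 32.0 ± 5.80 FPKM in NC. Its log2 fold change was -0.15 with a 95% interval of -0.48 to 0.18 (limma adjusted p = 0.44), and it was 0.29 with a fixed FPKM sum, not called.

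Vdr (ENSRNOG00000054420; chromosome 7, 128987981 to 129037677, minus strand), the nuclear receptor for active vitamin D, ran at 5.83, 22.1 and 42.7 FPKM in CKD and 39.1, 54.6 and 73.3 FPKM in NC. CKD 1 lay inside the NC range, and CKD 5 and CKD 2 were the lowest. The mean was 21.9 ± 13.1 FPKM in CKD and 55.2 ± 11.5 FPKM in NC, a log2 fold change of -1.50 with an SE of 0.38 (limma adjusted p = 0.0028). Without CKD 2, CKD 5 and SZ 3, whose values follow gene length, it was -0.95 (adjusted p = 0.0016), and that of Kl was -1.14 (adjusted p = 9.3e-05). Vdr was 0.685% ± 0.399 of the proximal tubule marker sum in CKD and 0.564% ± 0.0890 in NC, and 3.98% ± 1.65 of the loop and distal sum in CKD and 4.04% ± 1.41 in NC. After a correction of each library for gene length the log2 fold change was -1.54 for Vdr (adjusted p = 0.0041) and -1.42 for Kl (adjusted p = 0.0016).

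**Figure D3:**
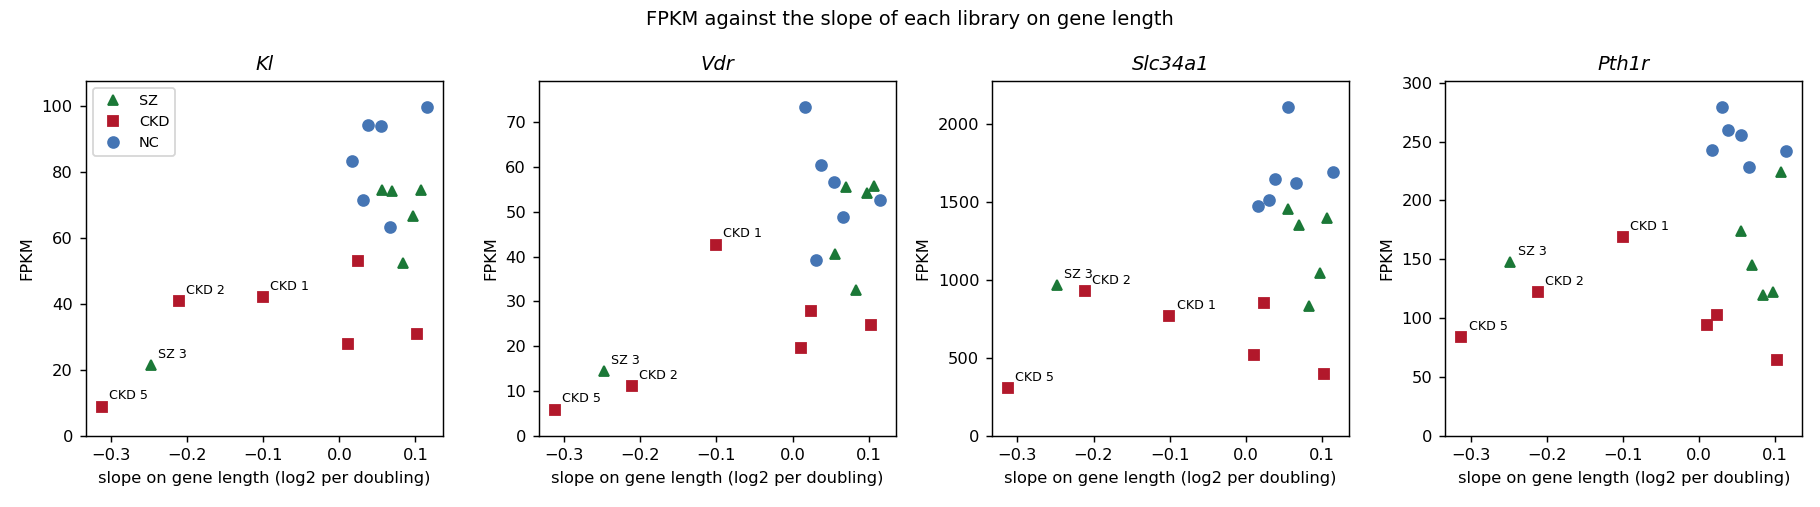
FPKM of Kl, Vdr, Slc34a1 and Pth1r in each of the 18 libraries (points, by group) against the slope of the library's log2 values on gene length (log2 units per doubling of length). The libraries CKD 5 (slope -0.31) and SZ 3 (-0.25) hold the lowest Kl of their groups, while 3 CKD libraries with slopes above 0 also lie below all NC libraries for Kl, Vdr, Slc34a1 and Pth1r.

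The enzymes of vitamin D turnover were not called in CKD kidneys. Cyp27b1 (ENSRNOG00000046214; chromosome 7, 62871297 to 62876241, plus strand), which makes active vitamin D in the proximal tubule, was the least abundant of the 10 genes. Its libraries ran at 0.371, 0.989 and 3.24 FPKM in CKD, from 18 to 152 reads, and at 0.366, 1.24 and 2.72 FPKM in NC, from 13 to 95 reads. The groups overlapped almost fully, and the log2 fold change of -0.05 had a 95% interval of -0.89 to 0.78 (limma adjusted p = 0.92), so changes within that interval are not excluded. The log2(FPKM + 1) scale compresses changes of a gene this low, so larger changes in FPKM are not excluded either. The sign of the log2 fold change turned under 4 of the 18 fits that left out a library. Cyp24a1 (ENSRNOG00000013062; chromosome 3, 159275947 to 159290383, minus strand), which breaks down vitamin D, ran at 35.4, 49.8 and 88.4 FPKM in CKD and 37.2, 46.9 and 81.3 FPKM in NC. Its log2 fold change was 0.02 with an interval of -0.48 to 0.51 (adjusted p = 0.95, limma). The log2 ratio of Cyp24a1 to Cyp27b1 (FPKM + 1) averaged 4.62 ± 0.81 in CKD and 4.55 ± 0.87 in NC.

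All 5 falls in CKD kidneys were called in each of the 33 alternatives tried. Not all of these are separate checks, here or below. Median ratio scaling repeats the main fit, and leaving out a library of the group not compared changes only the shared spread. The deposited scaling centres most genes, and 48.4% of the genes called were higher. With a fixed FPKM sum 83.7% were higher, the median gene moved to 0.34, and relative to that median the log2 fold changes of the 5 genes were -1.07 to -1.40.

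The comparison of SZ with CKD kidneys addressed the effect of SZ-A under adenine. It shares its CKD libraries with the comparison above, so the values of the comparisons are not independent. Slc34a1 rose in SZ kidneys and was the only member called, 1 of 10, where 4.16% of all genes were called higher, 6.82% lower and 11.0% in either direction. Of the genes called, 37.9% were higher, and 14.6% with a fixed FPKM sum. All 10 genes had a log2 fold change above 0, with a median of 0.60, beside 0.0055 over all genes. No member had ranges that did not overlap, which 0.628% of all genes showed in the higher direction.

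Slc34a1 ran at 834, 1197 and 1454 FPKM in SZ libraries (lowest, median and highest), against 308, 642 and 925 FPKM in CKD. Of the SZ libraries, SZ 6 lay within the CKD range and the others above it. The mean was 1174 ± 258 FPKM in SZ and 627 ± 256 FPKM in CKD, a log2 fold change of 0.99 with an SE of 0.25 (limma adjusted p = 0.018), a fold of 1.98. The call was held in 30 of 33 alternatives. It was lost when only the groups compared were fitted (adjusted p = 0.064), without SZ 4 (adjusted p = 0.053) and in the exact permutation test (adjusted p = 0.11), which called 0 of 13851 genes, with 3158 at an unadjusted p under 0.05. Slc34a1 was 18.9% ± 1.38 of the proximal tubule marker sum in SZ and 19.1% ± 3.75 in CKD, and 6 of the 12 markers were called higher in SZ. The part of that in the rise of Slc34a1 was not tested. The log2 ratio of Slc34a1 to Slc20a1 averaged 5.94 ± 0.50 in SZ and 5.17 ± 0.68 in CKD.

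The other genes that fell in CKD had higher means in SZ kidneys but were not called. Pth1r averaged 156 ± 39.1 FPKM in SZ and 106 ± 36.2 FPKM in CKD, a log2 fold change of 0.58 with a 95% interval of 0.18 to 0.97 (limma adjusted p = 0.054). Slc34a3 averaged 31.4 ± 13.6 FPKM in SZ and 16.8 ± 6.18 FPKM in CKD, a log2 fold change of 0.82 with an interval of 0.18 to 1.45 (adjusted p = 0.083, limma). In SZ 6 and SZ 3 Slc34a3 stayed at 14.1 and 17.8 FPKM, within the CKD range. As a share of the proximal tubule marker sum, Pth1r was 2.50% ± 0.278 in SZ and 3.42% ± 1.18 in CKD, and Slc34a3 was 0.484% ± 0.131 in SZ and 0.531% ± 0.147 in CKD. Both shares had the lower mean in SZ, with overlapping ranges.

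Kl ran at 21.4, 70.4 and 74.4 FPKM in SZ libraries, and the mean was 60.6 ± 21.0 FPKM in SZ and 33.9 ± 15.2 FPKM in CKD. SZ 3 held the lowest value, below 5 of the 6 CKD libraries, and the next lowest SZ library had 52.4 FPKM. The log2 fold change was 0.88 with a 95% interval of 0.16 to 1.61 (limma adjusted p = 0.10). Vdr showed the same library at the bottom, with 14.4, 47.4 and 55.7 FPKM in SZ, a mean of 42.2 ± 16.6 FPKM in SZ and 21.9 ± 13.1 FPKM in CKD, and a log2 fold change of 1.02 with an interval of 0.23 to 1.81 (limma adjusted p = 0.082). Without CKD 5 the log2 fold change of Kl was 0.55 (adjusted p = 0.23, limma), and over all alternatives its adjusted p ran from 0.012 to 0.27. Without SZ 3, 5 members were called higher: Slc34a1, Kl (adjusted p = 0.016), Vdr (0.016), Slc34a3 (0.037) and Pth1r (0.046), all from limma. That fit called 1468 of 13851 genes higher and 3058 in either direction, against 576 and 1521 in the main fit. Without CKD 2, CKD 5 and SZ 3 the members called were Slc34a1, Kl (adjusted p = 0.012) and Vdr (0.043), beside 674 of all genes called higher. Kl was 0.967% ± 0.289 of the proximal tubule marker sum in SZ and 1.04% ± 0.438 in CKD, and Vdr was 0.673% ± 0.239 in SZ and 0.685% ± 0.399 in CKD. Of the summed loop and distal markers Kl was 11.3% ± 3.89 in SZ and 6.75% ± 3.60 in CKD, and Vdr was 7.85% ± 3.05 in SZ and 3.98% ± 1.65 in CKD. By limma 0 of those 7 markers was called between these groups, and 1 was higher in SZ at an unadjusted p under 0.05.

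**Figure D4:**
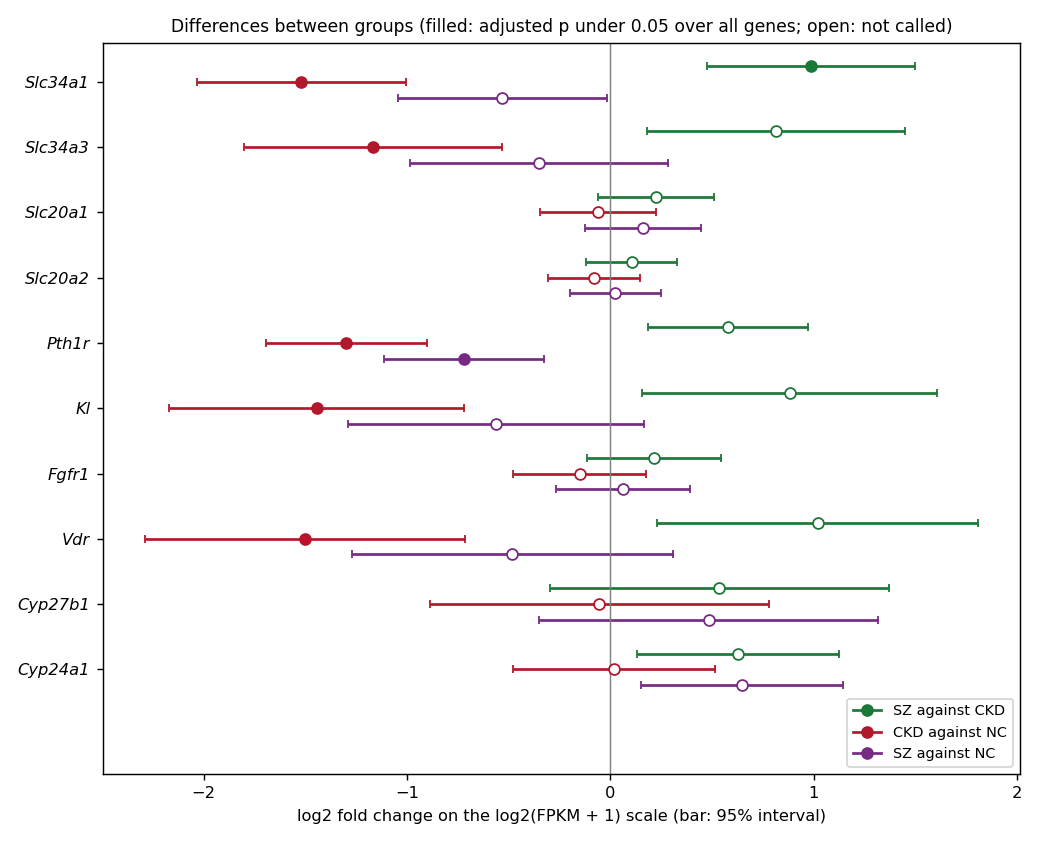
Log2 fold changes of the 10 genes on the log2(FPKM + 1) scale with 95% intervals (bars) for SZ against CKD, CKD against NC and SZ against NC; filled points had an adjusted p under 0.05 over all genes. Filled points are the 5 genes lower in CKD than in NC (-1.17 to -1.52), Slc34a1 in SZ against CKD (0.99) and Pth1r in SZ against NC (-0.72).

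Cyp24a1 ran at 56.0, 81.5 and 124 FPKM in SZ libraries, and all 6 lay above the CKD mean. The mean was 84.3 ± 25.6 FPKM in SZ and 54.6 ± 19.2 FPKM in CKD, a log2 fold change of 0.63 with a 95% interval of 0.13 to 1.13 (limma adjusted p = 0.088). Cyp27b1 split the SZ group: SZ 1, SZ 4 and SZ 5 held 4.45, 5.63 and 4.56 FPKM (167 to 245 reads), while SZ 2, SZ 3 and SZ 6 held 0.656, 0.960 and 0.464 FPKM (22 to 45 reads). The SZ mean was 2.78 ± 2.33 FPKM, against 1.38 ± 1.18 FPKM in CKD, and the log2 fold change of 0.54 had an interval of -0.30 to 1.37 (limma adjusted p = 0.38), and it was 0.32 without SZ 4. The highest Cyp24a1 of the SZ group stood in SZ 2 and the lowest in SZ 4. SZ 1 and SZ 5, also high in Cyp27b1, had 92.7 and 99.5 FPKM of Cyp24a1. SZ 3 and SZ 6, low in Cyp27b1, had 70.2 and 63.6 FPKM, so the enzymes showed no single order. The log2 ratio of Cyp24a1 to Cyp27b1 ranged from 3.11 in SZ 4 to 6.24 in SZ 2, with a mean of 4.71 ± 1.13 in SZ and 4.62 ± 0.81 in CKD. With a pseudocount of 0.1 these means stood in the reverse order, at 5.38 ± 1.60 in SZ and 5.55 ± 1.26 in CKD. Fgfr1 (0.21), Slc20a1 (0.22) and Slc20a2 (0.11) had small log2 fold changes that were not called, with 95% intervals that all included 0. That of Slc20a2 was -0.026 with a fixed FPKM sum.

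Against untreated kidneys, Pth1r was the only member called in SZ kidneys, and it fell. It averaged 156 ± 39.1 FPKM in SZ and 251 ± 17.7 FPKM in NC, a log2 fold change of -0.72 with an SE of 0.19 (limma adjusted p = 0.011), and every SZ library (120 to 224 FPKM) lay below every NC library. It was called in all 33 alternatives. Pth1r was 2.50% ± 0.278 of the proximal tubule marker sum in SZ and 2.59% ± 0.228 in NC. That sum was lower in SZ than in NC (exact permutation test, adjusted p = 0.0059), 0 of its 12 markers was called by limma (2 were lower at an unadjusted p under 0.05), and its part in the fall of Pth1r was not tested. Over all genes 8.61% were called lower, 12.5% higher and 21.1% in either direction. Of the genes called, 59.1% were higher, and 92.8% with a fixed FPKM sum. Slc34a1 also had ranges that did not overlap, at 834 to 1454 FPKM in SZ and 1474 to 2105 FPKM in NC, with a log2 fold change of -0.53 (95% interval -1.05 to -0.018, limma adjusted p = 0.13). These are 2 of 10 members with lower, not overlapping ranges, against 5.70% of all genes. Slc34a1 was called lower when only the groups compared were fitted (adjusted p = 0.021), with array weights (0.047) and in the exact permutation test (0.015).

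Cyp24a1 had the highest log2 fold change of the members against NC. It averaged 84.3 ± 25.6 FPKM in SZ and 53.5 ± 17.3 FPKM in NC, a log2 fold change of 0.65 (95% interval 0.15 to 1.14, limma adjusted p = 0.059), and all 6 SZ libraries lay above the NC mean. It was called higher in 9 of 33 alternatives, among them a fixed FPKM sum, with 0.95 (adjusted p = 0.0057). Kl (-0.56), Vdr (-0.48), Slc34a3 (-0.35), Slc20a1 (0.16), Slc20a2 (0.02), Fgfr1 (0.06) and Cyp27b1 (0.48) were not called, and their 95% intervals included 0. Single libraries moved some of these values. Without SZ 3 the log2 fold change was -0.29 for Kl, -0.21 for Vdr and -0.22 for Slc34a3. That of Slc34a3 was -0.21 without NC 2 and -0.16 without SZ 6, and that of Cyp27b1 was 0.27 without SZ 4 and 0.32 without SZ 5. The median log2 fold change was -0.16 over the members and -0.035 over all genes.

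The order of the levels per length was similar in the 3 groups. Slc34a1 led in each, with no library of any other member in its range, and Pth1r came next, overlapping with Cyp24a1 in SZ and in CKD. In NC kidneys Kl followed with 84.3 FPKM, above Vdr, Cyp24a1, Slc34a3 and Fgfr1, whose neighbours in this order overlapped. In SZ and in CKD kidneys Cyp24a1 stood above Kl, with overlapping ranges. Slc20a1, Slc20a2 and Cyp27b1 closed the order in all groups, and Slc20a2 and Cyp27b1 did not overlap in any.

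Likeness of pattern was measured as the root-mean-square difference of standardised log2 values over the 18 libraries, among 11661 genes with a proper symbol, where 0 is an identical pattern. The genes most like Slc34a1 were Tmprss13 (0.198), Slc22a5 (0.212), a carnitine transporter, and Alpl (0.220), the tissue-nonspecific alkaline phosphatase. Those most like Kl were Iqgap2 (0.244), Lratd2 (0.254) and Eps8 (0.255). Of the other members, Vdr was the nearest to Kl (0.434), and Slc34a3 (0.448) and Pth1r (0.452) were the nearest to Slc34a1. Cyp24a1 and Cyp27b1 had no such close neighbours. The nearest were Hspb8 (0.747), Tmem252 (0.779) and Fgf10 (0.823) for Cyp24a1, and Lonrf3 (0.698), Vps35l (0.737) and Tmem140 (0.740) for Cyp27b1. The measure is a description over libraries that share groups, with no test.

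Other genes of the pathway were taken from 6 lists of 64 genes in the table, of which 53 were tested. In CKD against NC 7 rose and 27 fell, with a median of -0.46, beside 24.4% higher and 26.0% lower over all genes. In SZ against CKD 7 rose and 4 fell (median 0.18), beside 4.16% higher and 6.82% lower over all genes, and in SZ against NC 6 rose and 8 fell (median -0.24), beside 12.5% higher and 8.61% lower. The same shares over all genes apply to the counts of each list below.

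Of the genes of phosphate export and carrier scaffolding, 1 of 9 rose in CKD and 7 fell. Slc34a2, the carrier NaPi-IIb, best known from gut and lung, was the gene that rose. It ran at 21.5, 38.7 and 55.4 FPKM in CKD and 1.10, 2.43 and 5.33 FPKM in NC, with no overlap, a log2 fold change of 3.36 with an SE of 0.35 (limma adjusted p = 4.9e-07). Its CKD mean of 38.2 FPKM stood above that of Slc34a3 in the same kidneys (16.8 FPKM), while in NC it was 2.97 FPKM against 38.6 FPKM for Slc34a3. In SZ kidneys Slc34a2 averaged 22.1 ± 9.68 FPKM, which was not called against CKD (log2 fold change -0.82, limma adjusted p = 0.13) and rose against NC (2.55, adjusted p = 6.1e-05). Hnf4a, a transcription factor of the proximal tubule, averaged 79.8 ± 31.3 FPKM in CKD and 191 ± 7.94 FPKM in NC (log2 fold change -1.34, limma adjusted p = 2.1e-05). Hnf4a rose in SZ kidneys to 136 ± 18.3 FPKM, against 79.8 ± 31.3 FPKM in CKD (0.84, adjusted p = 0.014, limma), as did Pdzk1 (0.64, adjusted p = 0.037, limma), a scaffold that holds NaPi-IIa in the brush border. Sgk1, a kinase, and Slc9a3r2, a scaffold, fell in SZ against CKD (-0.77 and -0.43). In CKD against NC the genes that fell included Ezr, Pdzk1, Sgk1, Slc9a3r1 and Xpr1, the phosphate exporter.

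**Figure D5:**
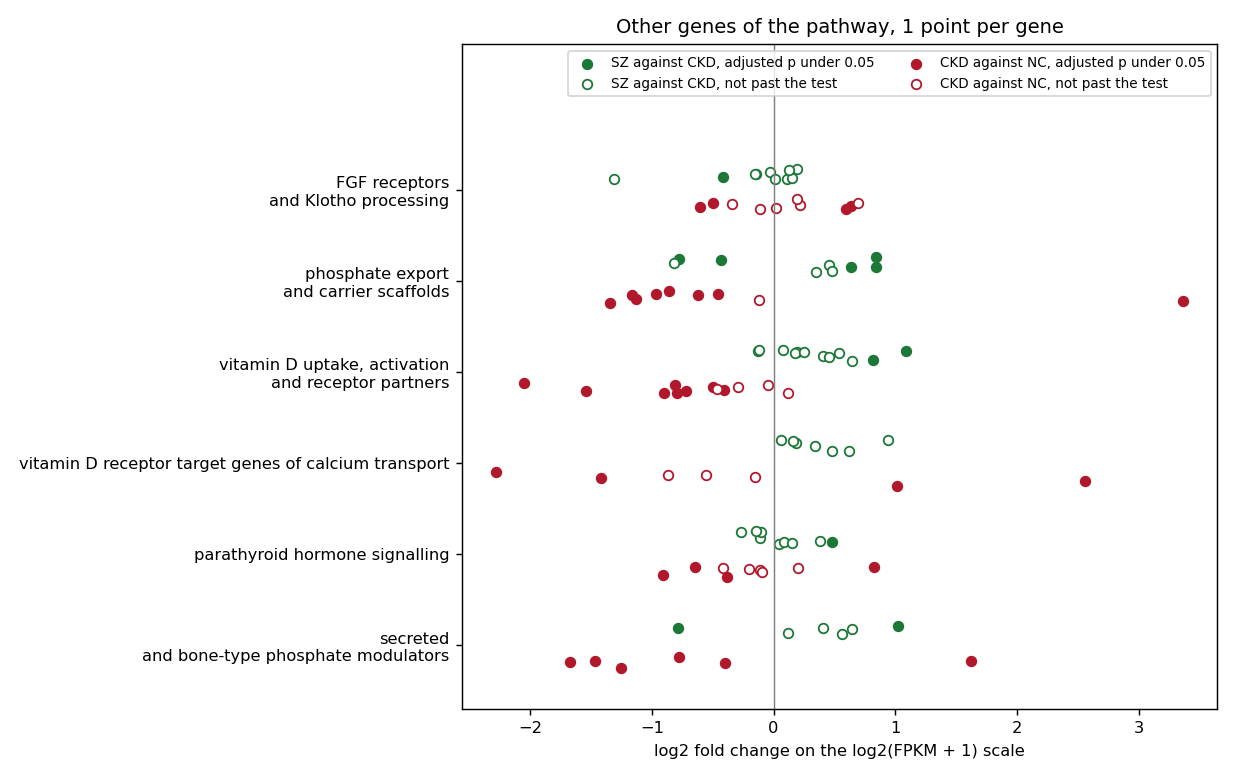
Log2 fold changes on the log2(FPKM + 1) scale of the 53 tested genes in 6 lists of the pathway (1 point per gene), for SZ against CKD and CKD against NC; filled points had an adjusted p under 0.05 over all genes. Slc34a2 (3.36) and Trpv6 (2.56) lie at the far right in CKD against NC, while 8 of 12 genes of vitamin D uptake and activation are filled points below 0.

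Of the FGF receptor and Klotho processing genes, 2 of 10 rose and 2 fell in CKD. Over all genes 24.4% were called higher and 26.0% lower, so these counts were near those of genes at large. Adam17, a protease that can shed Klotho, averaged 15.7 ± 1.26 FPKM in CKD and 9.79 ± 1.39 FPKM in NC (log2 fold change 0.64, limma adjusted p = 2.9e-05). It was also the only gene of the list called in SZ against CKD, where it fell to 11.5 ± 1.08 FPKM in SZ, against 15.7 ± 1.26 FPKM in CKD (-0.41, adjusted p = 0.014, limma), and both pairs of ranges were apart. Fgfrl1, an FGF receptor without a kinase domain, fell in CKD (-0.49), as did Bace1, and Fgfr3 rose (0.59). Fgf23 was under the filter and was not tested. It had 3 to 52 reads in SZ libraries (0.0592 to 1.28 FPKM), 19 to 79 reads in CKD libraries (0.362 to 1.56 FPKM) and 0 to 1 read in NC libraries. All CKD and SZ libraries were above all NC libraries for Fgf23, which in SZ rests on as few as 3 reads against 1. The share of such ranges among genes under the filter was not counted. The bone and parathyroid marker list summed to 0.882 to 1.35 FPKM in SZ, 0.397 to 1.60 in CKD and 0.377 to 2.38 in NC. The source of the Fgf23 reads was not tested.

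Of the genes of vitamin D uptake, activation and receptor partners, 0 of 12 rose and 8 fell in CKD. Lrp2 (megalin), the endocytic receptor that takes up vitamin D with its binding protein, averaged 63.1 ± 22.6 FPKM in CKD and 174 ± 14.3 FPKM in NC (log2 fold change -1.54, limma adjusted p = 5.9e-05). Cyp2r1, which performs the first activation step of vitamin D, mainly in liver, fell to 2.88 ± 1.16 FPKM in CKD, against 5.20 ± 1.14 FPKM in NC (-0.72). In SZ against CKD 2 genes of the list rose, Lrp2 to 132 ± 35.1 FPKM in SZ, against 63.1 ± 22.6 FPKM in CKD (1.09, adjusted p = 0.013, limma), and its partner Cubn (cubilin) to 60.0 ± 16.4 FPKM in SZ, against 33.8 ± 10.2 FPKM in CKD (0.82, adjusted p = 0.029, limma). In SZ against NC 0 of 12 was called by limma.

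Of the calcium transport genes known as vitamin D targets, 2 of 7 rose and 2 fell in CKD. These counts were near the shares over all genes, 24.4% higher and 26.0% lower. Trpv6, an epithelial calcium channel, ran at 4.09 to 9.37 FPKM in CKD and 0.0239 to 0.554 FPKM in NC (log2 fold change 2.56, limma adjusted p = 2.6e-09). It stayed at 5.78 to 8.52 FPKM in SZ, and its channel relative Trpv5 also rose in CKD (1.02, adjusted p = 0.0029, limma). Casr, the calcium-sensing receptor, fell to 3.88 ± 3.77 FPKM in CKD, against 17.3 ± 4.55 FPKM in NC (-2.28), and Calb1, a calcium-binding protein of the distal tubule, fell by 1.42. In SZ against CKD 0 of the 7 was called by limma.

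Of the genes of parathyroid hormone signalling, 1 of 9 rose and 3 fell in CKD, beside 24.4% higher and 26.0% lower over all genes. This list, too, was called about as often as genes at large. Adcy9, an adenylyl cyclase, averaged 2.17 ± 0.527 FPKM in CKD and 4.90 ± 0.416 FPKM in NC (-0.91), and in SZ kidneys it rose to 3.47 ± 1.04 FPKM, against the same CKD mean (0.48, adjusted p = 0.047, limma). Arrb2, an arrestin, rose in CKD (0.83), while Gna11 and Adcy6 fell. Of the secreted and bone-type phosphate modulators 1 of 6 rose and 5 fell in CKD. Ankh, which exports the mineralisation inhibitor pyrophosphate, averaged 13.2 ± 4.32 FPKM in CKD and 3.58 ± 1.09 FPKM in NC (1.62, limma adjusted p = 1.9e-06), and fell in SZ kidneys to 7.09 ± 1.65 FPKM, against 13.2 ± 4.32 FPKM in CKD (-0.79, adjusted p = 0.016, limma). Alpl, which splits pyrophosphate into phosphate, showed the opposite signs, with 73.1 ± 30.9 FPKM in CKD and 215 ± 19.8 FPKM in NC (-1.67, adjusted p = 1.3e-05, limma), and 138 ± 20.6 FPKM in SZ against the CKD mean (1.02, adjusted p = 0.013, limma). Enpp1, Fam20c, Galnt3 and Stc1 fell in CKD.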

How the data were processed

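Total RNA of rat kidneys was extracted with Trizol and sequenced from Illumina TruSeq RNA libraries, per the labels' protocols. Reads were aligned with HISAT2 2.0.5 and the build was mRatBN7.2, per the submitters' processing notes. The authors deposited FPKM values and gene lengths for 32116 genes. The sources used here do not give how fragments were counted, with or without strand, or on which annotation, so overlapping and antisense genes cannot be told apart. Multiplied by gene length, the FPKM of a library came in whole steps (100% of values within 0.01), from which its reads and total were recovered. The authors' scaling equals median ratios, which centres most genes between groups.

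Log2(FPKM + 1) of the genes with at least 1 FPKM in at least 6 libraries was fitted in limma 3.58.1 (R 4.3.3) as 3 group means over 18 libraries, with an intensity trend, 2-sided, and Benjamini-Hochberg adjustment over 13851 genes. Fold changes on this scale understate the change of low genes. Every adjusted p of a gene is limma's unless another test is named. The exact permutation test has 0.0022 as its smallest p before adjustment. Motifs and ratios were counted in Python 3.11.15. The code of the fit was tried on simulated data with independent normal noise. Such data lack the gene-length slopes of these libraries, so the trial does not check the calls made here. The alternatives were another pseudocount, filters, scalings, variance models, voom on the recovered reads, replicate number as a block, gene length correction and leaving out libraries.

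The members, lists and marker genes were chosen with earlier results of these data known. The naming rule takes all members and, from each of the 6 lists, up to 2 called genes with the smallest adjusted p in CKD against NC and in SZ against CKD. Fgf23, Trpv5, Calb1, Fgfr3, Bace1, Pdzk1, Xpr1 and the other list genes outside it were named after their values were seen. A gene that the rule names is not reported here.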

Additional observations from a re-analysis of the deposited data

Results flagged for a closer look

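Of 30 groups of 6 libraries, formed by the 10 genes and 3 groups, 1 held a library far from the others: Slc34a1 in NC, where NC 2 had 2105 FPKM and the next highest library 1690 FPKM. By this rule chance marks about 1 in 20 groups. The call of Slc34a1 in CKD against NC was held without NC 2.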

How the results depend on the processing

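The number of members called in CKD against NC was 5 under all alternatives, the 18 fits without a library included (5 to 5). In SZ against CKD it was 1, and it was 0 with only the groups compared and in the exact permutation test, 5 with array weights, 2 after gene length correction, 3 without CKD 2, CKD 5 and SZ 3, and 0 to 5 when a library was left out (5 without SZ 3, 4 without CKD 1, 2 without SZ 6, 0 without SZ 4). In SZ against NC it was 1, and it was 2 with a fixed FPKM sum, with plain library totals, without CKD 2, CKD 5 and SZ 3 and in the exact permutation test, 3 with only the groups compared and with array weights, and 1 to 2 when a library was left out (2 without NC 4, CKD 1, CKD 5 or SZ 4). Calls over all genes moved as well. In SZ against CKD the main fit called 1521 genes and array weights 2830. Leaving out SZ 3 gave 3058 genes, leaving out CKD 1 gave 2798 and leaving out SZ 4 gave 533. In SZ against NC the main fit called 2919 genes, the groups compared alone 4040 and array weights 5492. The mean log2 ratio of Cyp24a1 to Cyp27b1 in CKD was 4.62, and 5.55 with a pseudocount of 0.1. In SZ it was 4.71 and 5.38, so the order of the SZ and CKD means turned. The cause of these changes was not tested.

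Some log2 fold changes near 0 that were not called changed sign. In CKD against NC, with a fixed FPKM sum and with plain totals, they were 0.29 and 0.18 for Fgfr1, 0.37 and 0.27 for Slc20a1, 0.32 and 0.23 for Slc20a2, and 0.17 and 0.12 for Cyp27b1. With array weights they were 0.032 for Fgfr1, 0.035 for Slc20a1, 0.18 for Cyp27b1 and -0.068 for Cyp24a1. Without CKD 2, CKD 5 and SZ 3 they were 0.021 for Fgfr1, 0.023 for Slc20a1 and 0.026 for Slc20a2. With a library left out they ran from -0.25 to 0.093 for Cyp27b1 and from -0.13 to 0.15 for Cyp24a1. In SZ against CKD, Slc20a2 was -0.026 with a fixed sum, -0.0078 with plain totals and -0.0061 without the 3 libraries. In SZ against NC, with a library left out, Fgfr1 ran from -0.0034 to 0.14 and Slc20a2 from -0.012 to 0.091. The scalings moved the median of all genes to 0.34 and 0.25 in CKD against NC, -0.12 and -0.10 in SZ against CKD, and 0.22 and 0.15 in SZ against NC.

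The labels do not say whether replicate numbers pair the libraries. Deviations of same-numbered libraries correlated from -0.36 to 0.23, which cannot exclude a pairing. With replicate number as a block the members called were 5, 1 and 1 in the 3 comparisons, as without it. Cyp27b1 was not tested at a mean FPKM of at least 5, and at 13 to 245 reads per library its values carry the widest counting error of the members.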
